A study of Mus musculus with 4 samples.

Results

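Predicted transcripts that lie wholly inside another gene on the same strand were measured in mouse T helper 17 (Th17) cells. These are entries of the deposited gene table named only by a Gm number or by a BAC clone (RP23 or RP24), with a locus contained in that of a gene with any other kind of name on the same strand and with counts summing to 10 or more over the 4 libraries. Of the 34745 entries, 10392 had such a predicted name, 1420 of those were nested on the same strand, and 384 reached the summed count. The containing gene is called the host, and where several contained a transcript the one with the smallest span was taken. The 384 were thus chosen by names, positions and the count summed over both genotypes, and not by a comparison of genotypes.

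The strain was C57BL/6, and naive CD4+ T cells of the spleen were kept for 3 days in Th17 polarizing medium before RNA was taken, Th17 cells being the helper subset that makes interleukin 17. Wild-type (WT) cells gave libraries 13 and 15, and cells of mice carrying the genotype Setd2-CD4 cre gave libraries 22 and 24. In such mice the Cre recombinase is driven by Cd4 sequences and acts in developing T cells of the thymus, those that later become CD8 cells included. The labels do not name the exons of Setd2 that are removed, and they do not tie each library to an animal or culture of its own. Tests between genotypes therefore rest on the spread between these samples alone, and that spread may be technical.

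The enzyme made from Setd2 trimethylates lysine 36 of histone H3 (H3K36me3) as RNA polymerase passes along a gene. The mark is read by enzymes that remove histone acetylation, methylate DNA and restore nucleosomes behind RNA polymerase, and in yeast and mammalian cells it is known for keeping transcription from starting inside genes. Many transcripts nested in introns are single-exon models from cDNA or expressed sequence tags whose status was never settled, and in RNA sequencing the reads that fall on them cannot be told apart from unspliced RNA of the host.

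Total counts were 11007343 to 12518415 per library, and the 3 counts that a count of 0 allows equalled 0.228 to 0.292 CPM, counts scaled by the TMM-adjusted total of a library to 1000000. Setd2 itself had 2408 and 2316 counts in WT against 1476 and 1668 in Setd2-CD4 cre. Its level was 180 ± 5.14 CPM in WT and 148 ± 6.47 in Setd2-CD4 cre (SD, n = 2 each), a log2 difference of -0.28 (SE 0.10) that did not pass the edgeR quasi-likelihood test (Benjamini-Hochberg adjusted p = 0.0748). The test was passed with upper-quartile factors (-0.39), with library totals alone (-0.43) and without Setd2-CD4 cre 24 (-0.32). A count over the whole gene also holds reads from exons that a deletion leaves, so this is a weak check of the labels. Over all 12927 entries tested with edgeR, 16.2% were called higher and 14.5% lower in Setd2-CD4 cre. Of the T cell markers 4 of 6 fell and none rose, and their summed level was 2944 and 2743 CPM in WT against 2242 and 2444 in Setd2-CD4 cre. Of the 12 B cell markers 10 rose, with a summed level of 259 and 219 CPM in WT against 731 and 526 in Setd2-CD4 cre. Among CD8 and NK markers 2 of the 4 tested rose, with sums of 72.4 and 91.7 against 195 and 105 CPM. The 8 myeloid and dendritic markers summed to between 17.8 and 27.1 CPM in every library with Cd209a and Siglech at 0, and 1 of the 4 tested rose, Flt3, with 34 and 53 counts in WT against 219 and 120 counts (log2 fold change 2.28, adjusted p = 0.00659). Lyz2, Csf1r and Itgam did not pass, and the 3 erythroid markers summed to at most 0.915 CPM. None of these markers is a host, and the part of other cells in the results was not tested. In such bulk samples fewer cells of a type and less RNA per cell cannot be told apart.

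By GENCODE release M21 on the GRCm38 build, 259 of the 384 nested transcripts belonged to the TEC class, models that still await experimental evidence, and 60 to the sense intronic class. Another 15 were transcribed processed pseudogenes, and 8 had no entry in that release. Within their hosts 343 shared no exon base with the host, 20 shared exon bases of a coding host transcript and 13 of another host transcript. There were 328 hosts, of which 283 held 1 nested transcript, 36 held 2 and 9 held 3 or more. The nested transcripts had a median span of 2225 bases (143 to 41379) against 58945 for the hosts, and their 5′ ends were spread along the hosts, with a median position of 0.463 on a scale from 0 at the host's 5′ end to 1 at its 3′ end. Counts were low, with a median of 45 over the 4 libraries.

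Sequences of the first and last 100 bases are shown for 5 nested transcripts that were higher in Setd2-CD4 cre and 2 that were lower, because they are the transcripts of a single exon with the largest changes of the ratio to the host that passed the test and, for Gm37881, the smallest p of that ratio. They are GENCODE M21 transcript sequences, given 5′ to 3′ on the transcript's strand. Capitals mark CG pairs in the first 100 bases and the polyadenylation hexamer AATAAA in the last 100. Gm42763 lies in intron 1 of Setd2 (chr9:110543211-110545297, plus strand), Gm37653 in intron 1 of Rc3h1 (chr1:160915324-160918901, plus), Gm37248 in intron 5 of Satb1 (chr17:51796017-51799190, minus), Gm43753 in intron 19 of Arap2 (chr5:62656799-62660107, minus) and Gm37881 in intron 6 of Il2ra (chr2:11683126-11683546, plus).
Gm42763, first 100 bases: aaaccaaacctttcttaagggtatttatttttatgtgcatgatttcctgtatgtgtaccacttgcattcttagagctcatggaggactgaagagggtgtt
Gm42763, last 100 bases: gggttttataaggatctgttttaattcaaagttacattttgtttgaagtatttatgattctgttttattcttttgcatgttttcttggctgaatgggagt
Gm37653, first 100 bases: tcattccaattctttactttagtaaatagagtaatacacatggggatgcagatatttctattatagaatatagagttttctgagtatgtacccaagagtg
Gm37653, last 100 bases: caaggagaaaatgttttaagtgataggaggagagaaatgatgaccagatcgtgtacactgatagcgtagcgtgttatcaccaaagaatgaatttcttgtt
Gm37248, first 100 bases: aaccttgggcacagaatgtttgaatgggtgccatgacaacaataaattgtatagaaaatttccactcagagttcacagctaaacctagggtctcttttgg
Gm37248, last 100 bases: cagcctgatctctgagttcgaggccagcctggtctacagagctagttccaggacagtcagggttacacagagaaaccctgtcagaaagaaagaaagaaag
Gm43753, first 100 bases: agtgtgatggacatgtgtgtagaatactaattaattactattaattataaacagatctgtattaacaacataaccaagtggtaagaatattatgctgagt
Gm43753, last 100 bases: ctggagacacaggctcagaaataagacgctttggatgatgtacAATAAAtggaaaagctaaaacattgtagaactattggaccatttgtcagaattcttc
Gm37881, first 100 bases: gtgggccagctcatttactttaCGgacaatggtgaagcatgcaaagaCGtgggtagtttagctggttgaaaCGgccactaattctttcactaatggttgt
Gm37881, last 100 bases: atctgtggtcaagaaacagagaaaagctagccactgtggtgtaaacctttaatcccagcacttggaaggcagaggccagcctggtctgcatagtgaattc
The transcripts that were lower are RP23-322E20.6 in intron 1 of Krcc1 (chr6:71276494-71279348, plus) and Gm43681 in intron 6 of Ccni (chr5:93183856-93185758, minus).
RP23-322E20.6, first 100 bases: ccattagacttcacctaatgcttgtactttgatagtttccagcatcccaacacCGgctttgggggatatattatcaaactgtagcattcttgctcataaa
RP23-322E20.6, last 100 bases: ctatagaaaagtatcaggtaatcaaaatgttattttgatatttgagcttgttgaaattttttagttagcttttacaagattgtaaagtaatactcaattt
Gm43681, first 100 bases: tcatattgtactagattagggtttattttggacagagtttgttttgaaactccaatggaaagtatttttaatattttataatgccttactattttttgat
Gm43681, last 100 bases: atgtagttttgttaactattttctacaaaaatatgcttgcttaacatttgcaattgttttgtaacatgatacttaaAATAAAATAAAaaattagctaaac
The starts of Gm42763, Gm37653, Gm37248, Gm43753 and Gm43681 hold no CG pair, that of Gm37881 holds 3 and that of RP23-322E20.6 holds 1. AATAAA stands once in the last 100 bases of Gm43753, 2 times with an overlap in those of Gm43681, and in none of the other 5.

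Over the 376 nested transcripts with a sequence in that release, the first 300 bases held a median of 0.864 CG pairs per 100 bases, against 7.33 for the hosts and 2.33 for all entries of the table. Their GC content was lower too, with a median of 41.8% against 46.1% for the hosts and 47.4% for all entries. The hexamer AATAAA, searched on the transcript strand only, was in the last 50 bases of 64 (17.0%), whereas 61.9% of the hosts, 44.1% of all entries and 39.1% of the predicted transcripts that were not nested on the same strand held it. A run of 6 A, also on the transcript strand, was in the last 50 bases of 9.31%, close to the 9.30% of all entries. These letters describe the annotated ends, and a missing hexamer says nothing of where the RNA ended in these cells.

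Nested predicted transcripts were more often higher than lower in Setd2-CD4 cre. Taking all 384, the summed scaled counts were above WT in 275 (71.6%), with a median log2 ratio of 0.66, while the median over the 14765 entries of the table with the same summed count was -0.01. Both Setd2-CD4 cre libraries were above both WT libraries for 185 (48.2%) and below both for 51 (13.3%), and over all 14765 such entries the shares were 33.5% and 34.5%. The 343 that share no exon with the host gave 167 and 44 with a median of 0.67, and the 33 that share exon bases gave 13 and 7 with a median of 0.33. The median was 0.69 for the 143 with a summed count of 10 to 29, 0.66 for the 130 with 30 to 99 and 0.59 for the 111 with more, against -0.07, -0.15 and -0.00 for all other entries of those counts. Just inside the minimum, the 16 nested transcripts with a summed count of exactly 10 had a median of 0.79, and just outside it the 12 with 9 counts had one of 1.13.

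**Figure D1:**
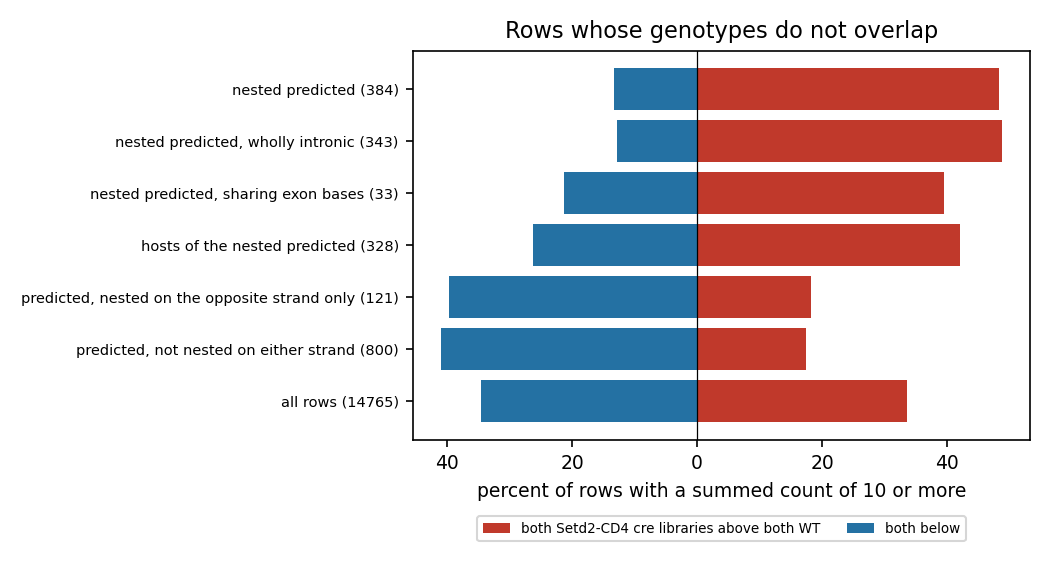
Percentage of entries with a summed count of 10 or more whose libraries did not overlap between genotypes, with bars to the right for both Setd2-CD4 cre libraries above both WT libraries and bars to the left for both below; the number of entries is in parentheses. The nested predicted transcripts stood at 48.2% and 13.3%, and predicted transcripts that are not nested on either strand at 17.4% and 40.9%.

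Other predicted transcripts did not show this direction. For the 800 that were nested on neither strand the median log2 ratio was -0.39, with 139 above and 327 below WT without overlap. The 121 that lay only inside a gene on the opposite strand had a median of -0.40, with 22 above and 48 below. Entries with ordinary gene names nested on the same strand, 181 in all, had a median of -0.20. The hosts themselves had a median of 0.09, with 138 of 328 above and 86 below without overlap. These sets were compared by their counts and medians only.

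In the edgeR test, 218 of the 384 nested transcripts had enough counts to be tested and 166 did not. At an adjusted p of 0.05 over all 12927 entries tested, 56 rose (25.7%) and 6 fell (2.75%), beside the 16.2% of all entries tested that were called higher and the 14.5% called lower. Of the hosts, 316 were tested, and 79 of these rose and 29 fell (9.18%). The share of hosts that rose was thus close to that of the nested transcripts, and falls were rarer among the nested transcripts. The median log2 fold change was 0.66 over the 218 and -0.01 over all entries tested. Because 33 of the 218 reached the count filter only through the Setd2-CD4 cre libraries and 9 only through the WT libraries, those had to be high in that genotype to be tested at all; among the 176 that reached it in both genotypes 34 were called higher and 6 lower, with a median of 0.50. Of the nested transcripts named here, Gm42763, Gm37653, Gm43753, Gm37248, Gm37488, Gm38376, Gm43360, Gm37328, Gm4707 and Gm37983 were tested only through Setd2-CD4 cre and Gm37285 only through WT. The 56 rises ranged from a log2 fold change of 0.48 to 5.33 with a median of 1.77, lay in 51 hosts, and 53 of them shared no exon with the host; 22 had a mean of under 10 counts in WT. Fewer rises were called without WT 13 or without WT 15, and DESeq2 called 31. All 56 stayed above 0 in each of these fits. Their genotypes did not overlap in any of the 56, so leaving out a library could hardly turn a sign.

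Gm42763, the transcript in the first intron of Setd2 that earlier results of these data had already shown to be higher, starts 10614 bases from the 5′ end of its host. It had 5 and 4 counts in WT 13 and 15, and 39 and 45 in Setd2-CD4 cre 22 and 24. Both Setd2-CD4 cre libraries thus stood well above both WT libraries, while the counts of Setd2 were lower in both. Its log2 fold change was 3.49 (SE 0.47, adjusted p = 0.00219 in edgeR). For each 100 counts of Setd2 there were 0.208 and 0.173 counts of Gm42763 in WT against 2.64 and 2.70 in Setd2-CD4 cre. Setd2 is itself the targeted gene, so an effect of the altered gene on either count cannot be told apart here.

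The largest rise was that of Gm37653, in the first intron of Rc3h1, which encodes the Roquin protein that degrades messenger RNAs of T cell activation. It had 0 and 1 counts in WT against 23 and 18 in Setd2-CD4 cre, which after scaling makes a ratio of 50.8 (exact 95% interval from counting error 8.63 to 2056). The fitted log2 fold change of 5.33 (SE 0.88, adjusted p = 0.00452 in edgeR) rests on this single WT count. Gm43753, in an intron of Arap2, a regulator of small GTPases, had 3 and 1 counts in WT against 50 and 63 in Setd2-CD4 cre. Its log2 fold change was 5.03 (SE 0.54, adjusted p = 0.00127), whereas Arap2 rose by 0.86 (SE 0.10, adjusted p = 0.00167). Neither transcript overlapped between genotypes. Non-overlap was a condition for naming the largest rises and falls, of the level as of the ratio, so it adds nothing for those named.

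Gm37248 lies in an intron of Satb1, a chromatin organizer of T cells. It had 9 and 5 counts in WT against 78 and 130 in Setd2-CD4 cre, a log2 fold change of 4.17 (SE 0.43, adjusted p = 0.00122 in edgeR). Satb1 had 12201 and 13998 counts in WT against 9779 and 10117 in Setd2-CD4 cre, a log2 difference of -0.09 (SE 0.13, adjusted p = 0.626). A second transcript nested in Satb1, Gm36931, shares exon bases with a coding transcript of the host and had 231, 211, 163 and 234 counts, in the order WT 13, WT 15, Setd2-CD4 cre 22 and 24. Its genotypes overlapped, with a log2 difference of 0.15 (SE 0.19, adjusted p = 0.582); it is named after its values were seen, to set it beside Gm37248.

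Several large rises lay in hosts that rose as well. Gm37488, in an intron of the splicing regulator gene Mbnl1, had 7 and 6 counts in WT against 49 and 55 in Setd2-CD4 cre (log2 fold change 3.28, adjusted p = 0.00181 in edgeR), and Mbnl1 rose by 0.62 (SE 0.11). Gm37347, in the first intron of Il1r2, the gene of the interleukin 1 decoy receptor, had 11 and 7 counts against 32 and 94 (3.08, adjusted p = 0.00934), beside a rise of Il1r2 by 1.54 (SE 0.12). Gm17024 in Ifrd1 had 24 and 16 against 102 and 145 (2.92, adjusted p = 0.00133), and Ifrd1, a transcriptional coregulator, rose by 1.67 (SE 0.14). As their choice required, the 4 libraries did not overlap between genotypes for any of these. The Setd2-CD4 cre libraries differed almost 3-fold for Gm37347, which did not pass without WT 15 (log2 fold change 2.79).

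Gm38257, in the first intron of the Golgi GTPase gene Arl5b, had 13 and 8 counts in WT against 44 and 89 in Setd2-CD4 cre (log2 fold change 2.95, adjusted p = 0.00415 in edgeR), with a host that rose by 1.39 (SE 0.14). Gm43065, in the first intron of Ptpn22, a phosphatase that restrains T cell receptor signalling, had 14 and 6 against 45 and 77 (2.89, adjusted p = 0.00483), and Ptpn22 rose by 0.83 (SE 0.11). Gm38376, in Ncoa2, a coactivator of nuclear receptors, had 3 and 4 against 24 and 16 (2.78, adjusted p = 0.0125). These were separated by genotype in every library, again as their choice required. Gm38376 did not pass without WT 13 (log2 fold change 2.60) or without WT 15 (2.99).

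Among the abundant nested transcripts, Gm36989 in an intron of Matr3, an RNA-binding protein of the nuclear matrix, had 203 and 188 counts in WT against 452 and 451 in Setd2-CD4 cre. Its log2 fold change of 1.52 (SE 0.14) had the smallest edgeR adjusted p of the nested transcripts, 0.00106, and Matr3 rose by 0.84 (SE 0.14, adjusted p = 0.00423). Gm38394 spans 99.7% of its host Zc3h11a, shares exons of a coding transcript with it, and had 4245 and 3336 counts in WT against 5120 and 5017 (log2 fold change 0.73, adjusted p = 0.00799). Gm12346, a processed pseudogene in Ssh2, had 1218 and 1312 against 1426 and 1408 (0.48, adjusted p = 0.0158). Gm38394 did not pass without WT 15 (adjusted p = 0.105), nor Gm12346 without WT 13 (0.174) or WT 15 (0.115). Of the 50-base stretches of Gm38394 and Gm12346, 90.3% and 76.7% also occur in other genes, so how their reads were shared out is uncertain.

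The other abundant ones did not pass the test. Gm37691, in an intron of the laminin gene Lamb3, had 575, 522, 402 and 489 counts in the order WT 13, WT 15, Setd2-CD4 cre 22 and 24, and its level of 41.8 ± 2.90 CPM in WT and 42.0 ± 4.01 in Setd2-CD4 cre overlapped (log2 difference 0.01, adjusted p = 0.972 in edgeR; the sign is negative under upper-quartile and library-total scaling). Gm7666, a processed pseudogene in the adaptor gene Fyb, had 501, 546, 305 and 358 (log2 difference -0.35, adjusted p = 0.0882), and 93.8% of its 50-base stretches occur in other genes.

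Only 6 nested transcripts fell, all without an exon shared with the host. Gm17491, near the 5′ end of the phosphate transporter gene Slc20a2, had 271 and 227 counts in WT against 76 and 84 in Setd2-CD4 cre, a log2 fold change of -1.33 (SE 0.19, adjusted p = 0.00319 in edgeR), and Slc20a2 fell by 0.69 on the log2 scale (SE 0.21, adjusted p = 0.0427). RP23-322E20.6 in Krcc1 had 50 and 85 against 22 and 21 (-1.33, adjusted p = 0.0322), and Gm15708 in Bri3 had 60 and 48 against 17 and 19 (-1.27, adjusted p = 0.03). Gm27010, in the noncoding RNA gene Dleu2, had 75 and 81 against 26 and 33 (-1.09, adjusted p = 0.0279).

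Gm20342, inside the noncoding gene Ino80dos, had 407 and 363 counts in WT against 135 and 203 in Setd2-CD4 cre (log2 fold change -0.88, adjusted p = 0.0132 in edgeR). Gm43681, in the last intron of the cyclin gene Ccni, had 128 and 145 against 57 and 75 (-0.74, adjusted p = 0.0452). None of the 6 overlapped between genotypes, as naming them required. Only the fall of Gm17491 was called when each library was left out in turn and with DESeq2. Falls numbered 2 without WT 13, 1 without WT 15, 15 without Setd2-CD4 cre 24 and 2 with DESeq2.

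Whether a nested transcript moved with its host was asked first of the separate tests. Of the 56 that rose, 33 lay in hosts that rose, 20 in hosts that did not pass and 3 in hosts that fell. Of the 6 that fell, hosts rose, fell and did not pass for 2 each. Of the 149 others with a tested host, 26 had a host that rose and 13 one that fell. Across the 211 pairs in which both could be tested, the Spearman correlation of the fold changes was 0.36, a description in which the pairs share the 4 libraries and their scaling.

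The change of the nested-to-host ratio was then tested directly, in which the scaling of the libraries cancels. In the limma test over 312 nested pairs of any name, 10.9% of pairs were higher and 2.88% lower at an adjusted p of 0.05. Of the 211 pairs with a predicted nested transcript, 27 were higher and 5 lower, the log2 change was above 0 in 153, and its median was 0.52. Of these pairs 33 reached the count filter only through Setd2-CD4 cre (all above 0, 8 higher) and 6 only through WT (none above 0, none called). Among the 172 that reached it in both genotypes 19 were higher and 5 lower, 120 were above 0, and the median was 0.36. The 101 pairs with an ordinary nested gene had a median of 0.21, with 7 higher and 4 lower. In all 27 the ratios of the 2 genotypes did not overlap, which passing a test of 2 libraries against 2 nearly requires. Over all 384 nested transcripts the ratios were without overlap higher for 157 and lower for 44. Of the 27, 21 also rose by themselves. Without WT 13 there were 12 higher ratios and without WT 15 there were 10.

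**Figure D2:**
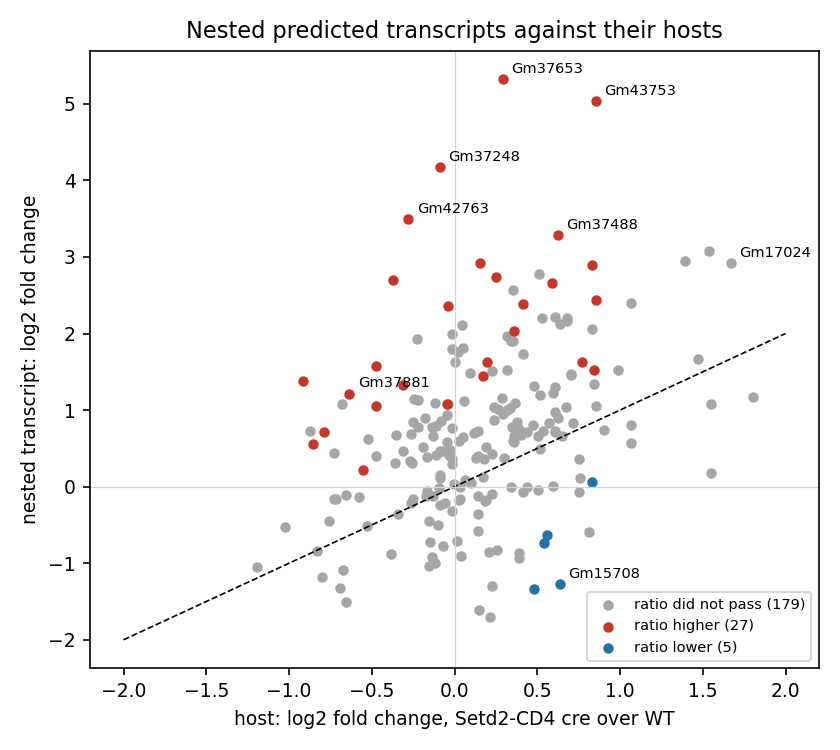
Log2 fold change (Setd2-CD4 cre over WT, edgeR) of each nested predicted transcript on the vertical axis against that of its host on the horizontal axis, for 211 pairs; the dashed line marks equal change. Red points are the 27 pairs whose ratio was higher and blue points the 5 whose ratio was lower by the limma test; Gm37653, Gm43753, Gm37248 and Gm42763 stand highest above the line.

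The ratio rose most for Gm37653 (log2 change 4.61, SE 0.84, limma adjusted p = 0.000534), Gm37248 (4.21, SE 0.60, 2.2e-05), Gm43753 (4.08, SE 0.78, 0.000534) and Gm42763 (3.68, SE 0.64, 0.000421). All of these, and Gm43360 and Gm37488 after them, reached the count filter only through Setd2-CD4 cre. They had to be high in that genotype to be tested at all. Gm43360, in the SERCA calcium pump gene Atp2a2, had 3 and 7 counts in WT against 20 and 34 in Setd2-CD4 cre, beside 3222 and 3522 against 1855 and 2363 for its host. Its ratio rose by 3.07 (SE 0.68, adjusted p = 0.00222). Gm37370, in the phosphatase subunit gene Ankrd44, had 9 and 14 against 72 and 53, and its ratio rose by 2.46 (SE 0.53, adjusted p = 0.00177). For Gm37488 in Mbnl1 the ratio rose by 2.60 (SE 0.58, adjusted p = 0.00259). Without WT 13 the ratio did not pass for Gm37653 (adjusted p = 0.0817), Gm43360 (0.0746), Gm37370 (0.0553) or Gm37488 (0.0596), and without WT 15 not for Gm37488 (0.0952).

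Gm37940, in the nuclease gene Snd1, had 14 and 1 counts in WT against 42 and 22 in Setd2-CD4 cre. Its ratio rose by 2.62 (SE 0.83, limma adjusted p = 0.0468), although its own log2 difference of 2.39 did not pass edgeR (adjusted p = 0.0695). The WT libraries differed more than 10-fold here: the ratio change was 4.18 (adjusted p = 0.0391) without WT 13 and 1.06 (adjusted p = 0.5) without WT 15, and it was called in 1 of 6 alternatives. For other large rises in hosts that rose, the change of the ratio did not pass: this was so for Gm37347 (1.37, adjusted p = 0.133), Gm17024 (1.26, adjusted p = 0.057) and Gm38257 (1.49, adjusted p = 0.0662).

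Gm37881 went against its host. This transcript of 421 bases in Il2ra, which encodes the alpha chain of the interleukin 2 receptor (CD25), had 263 and 289 counts in WT against 465 and 570 in Setd2-CD4 cre, while Il2ra had 11607 and 13716 against 6265 and 6893. Its level rose from 21.03 ± 1.38 CPM in WT to 48.8 ± 4.92 CPM, by 1.21 on the log2 scale (SE 0.15, adjusted p = 0.00164 in edgeR), and Il2ra fell by 0.64 on the log2 scale (SE 0.13, adjusted p = 0.00982). For each 100 counts of Il2ra there were 2.27 and 2.11 of Gm37881 in WT against 7.42 and 8.27 in Setd2-CD4 cre, and the ratio rose by 1.84 (SE 0.21, limma adjusted p = 1.38e-06). Per length, the mean FPKM of Gm37881 was 30.7% of that of Il2ra in WT and 111% in Setd2-CD4 cre.

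Among the 211 pairs, 18 had a host that fell, 132 one that did not pass and 61 one that rose. A fall of the host raises the ratio by itself, and only 3 nested transcripts in hosts that fell rose in edgeR. Of the 27 with a higher ratio, 7 lay in hosts that fell, 11 in hosts that did not pass and 9 in hosts that rose. Gm12207 in Skp1a, an adaptor of ubiquitin ligases, and Gm43375 in Anp32e, a histone chaperone, are of the first kind and are named after their values were seen. Gm12207 had 28 and 21 counts in WT against 49 and 54 in Setd2-CD4 cre while Skp1a fell by 0.91 (ratio log2 change 2.29, limma adjusted p = 0.000534). Gm43375 had 97 and 107 against 114 and 157 while Anp32e fell by 0.79 (ratio 1.51, adjusted p = 0.000534). With Gm37248, Gm37881, Gm42763 and Gm43753, they are among the 7 whose higher ratio was called under all 6 alternatives run.

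The ratio fell for 5. Gm15708 had 32.4 and 29.8 counts for each 100 of Bri3 in WT against 7.36 and 9.41 in Setd2-CD4 cre (log2 change -1.87, limma adjusted p = 0.0103). RP23-322E20.6 had 23.1 and 34.1 for each 100 of Krcc1 against 7.94 and 8.54 (-1.75, adjusted p = 0.0112). Gm43681 had 1.59 and 2.04 for each 100 of Ccni against 0.603 and 0.906 (-1.27, adjusted p = 0.00746). These were separated by genotype, as naming them required.

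The other 2 were pseudogene copies, RP23-361O12.4 in the deubiquitinase gene Stambp (-1.19, limma adjusted p = 0.0468) and Gm12543 in Snx30 (-0.79, adjusted p = 0.0497), and 96.6% and 55.7% of their 50-base stretches occur in other genes. None of the 5 was called under all alternatives. Leaving out WT 15 or Setd2-CD4 cre 22 left 0 lower ratios (5 and 9 at an unadjusted p under 0.05 in limma, against 10 with all libraries), and edgeR with the host count as offset left 3.

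**Figure D3:**
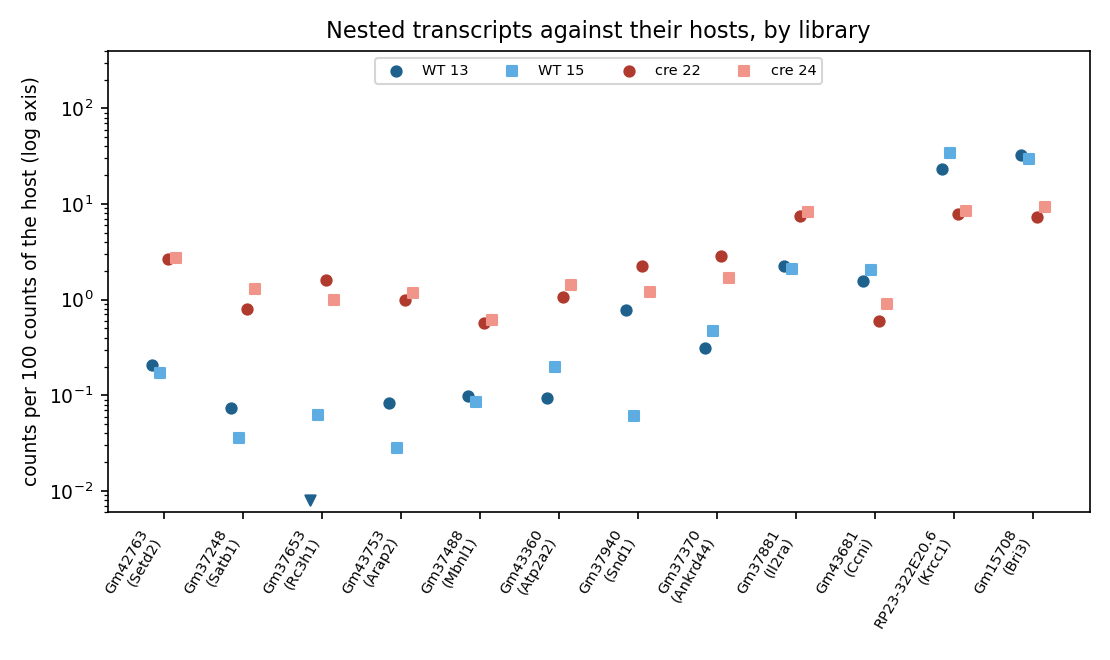
Counts of 12 nested transcripts for each 100 counts of the host, on a log axis, in each of the 4 libraries (host in parentheses; the triangle at the lower edge marks a count of 0, Gm37653 in WT 13). Both Setd2-CD4 cre libraries stood above both WT libraries for the 9 transcripts on the left and below them for Gm43681, RP23-322E20.6 and Gm15708. Such separation was a condition for naming all of them except Gm42763 and Gm37881.

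Position within the host was read from the 5′ end of the nested transcript. Each host was cut into 3 equal parts. In the 5′ part the median difference between the log2 fold changes of nested transcript and host was 0.55 (68 pairs), in the middle part 0.56 (68 pairs) and in the 3′ part 0.32 (75 pairs). Over the pairs that reached the count filter in both genotypes these medians were 0.46 (52 pairs), 0.32 (56 pairs) and 0.26 (64 pairs). Over all 384, from summed scaled counts and with no filter by genotype, they were 0.63, 0.56 and 0.32. Ratios were higher for 10, 7 and 10 pairs in these parts and lower for 2, 1 and 2. Among the pairs that reached the count filter in both genotypes, 6, 4 and 9 were higher and 2, 1 and 2 lower. The large rises were spread over the length: Gm42763 at 0.12 and Gm37653 at 0.13 of the host, Gm37248 at 0.35, Gm43753 at 0.65, Gm37881 at 0.80 and Gm37488 at 0.84. All of these but Gm37881 reached the count filter only through Setd2-CD4 cre.

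In finer steps over the 211 pairs, those admitted through 1 genotype included, the median change of the ratio was 0.19 for positions below 0.1 (24 pairs) and 1.04 from 0.1 to 0.2 (22 pairs). It was 0.67 from 0.2 to 0.4 (34 pairs), 0.50 from 0.4 to 0.6 (38 pairs), 0.34 from 0.6 to 0.8 (44 pairs) and 0.24 above 0.8 (49 pairs). Across the 211 pairs position and ratio change had a Pearson correlation of -0.12 and a Spearman correlation of -0.11, a weak relation between pairs that share libraries and in part hosts. The ratio change had Spearman correlations of 0.05 with the host's span, 0.00 with the distance from the host's 5′ end, 0.02 with the nested transcript's length and -0.15 with its GC content (210 pairs). Pairs in the first intron of the host's principal transcript had a median of 0.54 (50 pairs), and pairs in later introns 0.58 (139 pairs).

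**Figure D4:**
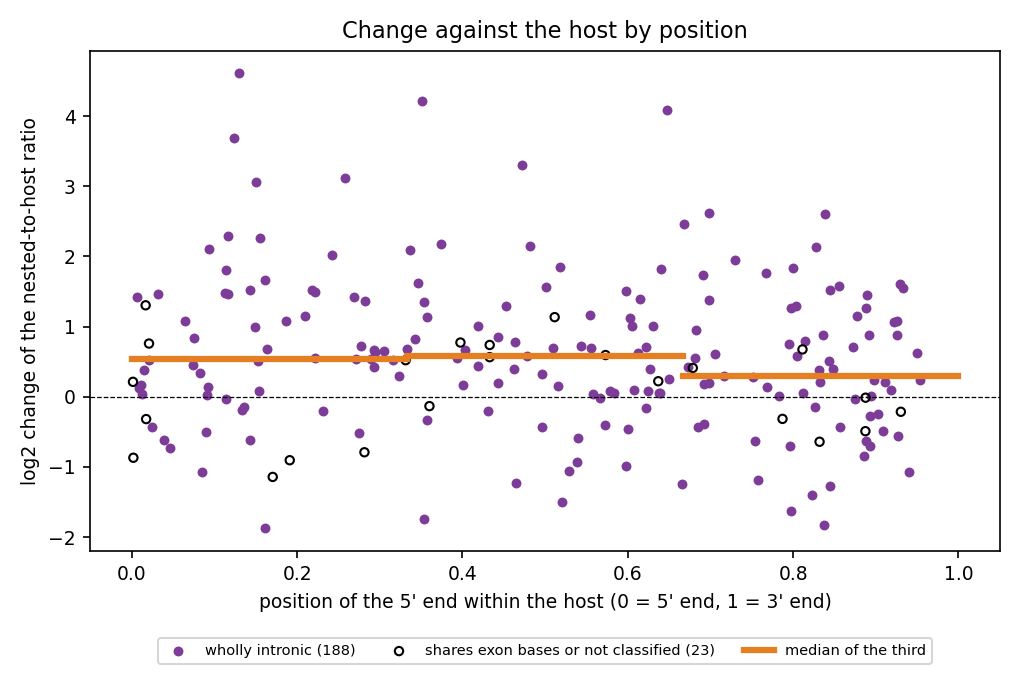
Log2 change of the nested-to-host ratio (Setd2-CD4 cre over WT, limma) against the position of the nested transcript's 5′ end within the host, from 0 at the host's 5′ end to 1 at its 3′ end; filled points share no exon with the host, open points share exon bases or were not classified, and bars are the medians of 3 equal parts of the host. The medians were 0.54, 0.57 and 0.29, and points above 2 occur in each part.

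The 2 Setd2-CD4 cre libraries did not stand equally high. Over all 384, the log2 of the nested-to-host ratio against the WT mean had a median of 0.27 in library 22 and 0.67 in library 24. In the 3′ part of the host these were 0.06 and 0.62, in the middle part 0.51 and 0.63, and in the 5′ part 0.26 and 0.77. Without library 24 the middle part had a median difference of 0.43, and the 3′ part ranged from 0.16 without library 24 to 0.58 without library 22. The 343 transcripts in introns took 0.0910% and 0.0875% of all counts in WT, 0.108% in Setd2-CD4 cre 22 and 0.133% in 24.

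Measured per length, the nested transcripts were mostly far below their hosts. The median FPKM of the 384 was 0.489 in WT and 0.727 in Setd2-CD4 cre, beside 6.65 and 6.89 for the hosts. As a share of the host's FPKM the median was 8.30% in WT and 11.4% in Setd2-CD4 cre, and 34 and 39 nested transcripts exceeded their host. Gm37691 was one of these, at 519% of Lamb3 in WT and 345% in Setd2-CD4 cre.

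By summed scaled counts, untested ones included, 269 of all 384 nested transcripts were above their host's own change. Of the 45 hosts with more than 1 nested transcript, by the same measure all of them were above the host's own change in 31, all below in 5 and mixed in 9. The nested transcript nearest the host's 5′ end had the higher change in 28 of these hosts and the one nearest the 3′ end in 17.

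In Rabgap1l, a regulator of Rab GTPases, the neighbouring Gm37328 and Gm38329 rose. Gm37328 went from 2 and 4 counts to 12 and 11 (log2 fold change 2.20, adjusted p = 0.042 in edgeR, but 0.0505 with library totals). It was called in only 2 of the 7 alternatives run for it. Gm38329 went from 17 and 11 to 57 and 45 (2.17, adjusted p = 0.00726). Gm38302 and Gm37529, farther along that host, had 4, 8, 3 and 5 and 4, 0, 3 and 5 counts, in the order WT 13, WT 15, Setd2-CD4 cre 22 and 24, and were not tested. In the chromatin protein gene Smchd1, Gm37639 rose from 72 and 62 counts to 84 and 101 (0.77, adjusted p = 0.0458, but 0.158 with DESeq2). Gm4707 in that host rose from 5 and 9 to 16 and 24 (1.80, adjusted p = 0.039, but 0.165 with DESeq2). Of 8 alternatives, Gm37639 was called in only 2 and Gm4707 in only 3. Gm38220, also in Smchd1, had 223, 179, 200 and 218 counts and did not pass (0.37, adjusted p = 0.152).

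In the deubiquitinase gene Fam188a, which fell by 0.47 (SE 0.13, adjusted p = 0.0317 in edgeR), the ratio rose for Gm37289 (1.52, limma adjusted p = 0.0391) and Gm38014 (2.18, adjusted p = 0.0326). Their counts went from 21 and 20 to 33 and 36 and from 12 and 4 to 16 and 23. On their own, Gm37289 (1.06, adjusted p = 0.0619) and Gm38014 (1.58, adjusted p = 0.078) did not pass edgeR. Neither ratio passed once any 1 library was left out, and that of Gm38014 ranged from 1.44 without WT 15 to 2.92 without WT 13. Gm37255 in the same host had 15, 12, 6 and 23 counts and overlapped between genotypes. In Zfp280d, which itself rose by 1.07 (SE 0.23), Gm37983 rose from 9 and 7 counts to 29 and 40 (2.39, adjusted p = 0.00783). Gm37303 in that host rose from 78 and 69 to 105 and 103 (0.81, adjusted p = 0.0317, but 0.112 with DESeq2). It was called in 4 of 8 alternatives. Gm37581 there had 59, 52, 44 and 90 counts and overlapped. No nested transcript named here in Rabgap1l, Smchd1 or Zfp280d had a ratio to the host that was called.

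Not every such host showed rises. In Kansl1l, Gm38387 had 47 and 24 counts in WT against 13 and 17 in Setd2-CD4 cre and Gm37285 had 11 and 23 against 6 and 9, while Gm37570 had 50 and 41 against 46 and 78, and none passed the test. In Ncoa2, Gm38120 had 3, 10, 0 and 6 counts and Gm38380 had 7, 0, 0 and 6, beside the rise of Gm38376. Those in Man1a2 and Ralgps2 were all low and overlapped or were barely separated: Gm43466 (10, 9, 4 and 14 counts), Gm42869 (4, 4, 4 and 10) and Gm43462 (12, 2, 10 and 5) in the mannosidase gene Man1a2, and Gm28693 (1, 2, 1 and 7), Gm37802 (3, 6, 11 and 6) and Gm37943 (3, 0, 5 and 3) in Ralgps2.

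Some of the nested transcripts share sequence with other genes, where reads cannot be placed with certainty. Of the 376 with a sequence, 193 shared no 50-base stretch with any other gene and 29 shared more than 20% of them, and of the 56 that rose these were 32 and 3. Its part in the rises was not tested. Gm42763, Gm37653, Gm37248, Gm43753 and Gm37881 shared none. The hexamer AATAAA was in the last 50 bases of 5 of the 56 that rose (8.93%) and of 35 of 155 tested that did not pass (22.6%), a difference that was not tested.

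Genes of the machinery around these transcripts are set beside all entries tested, of which 16.2% were higher and 14.5% lower. Of 34 tested genes for the chromatin of transcribed bodies and elongation, 6 rose and 5 fell, with a median log2 fold change of 0.03. In the edgeR test Supt4a, an elongation factor subunit, rose by 1.73 (SE 0.12), Morf4l1, a reader of H3K36me3, rose by 0.73 (SE 0.12), and Asf1b, a histone chaperone, fell by 1.46 (SE 0.13). Dnmt3b, a DNA methyltransferase recruited by the mark, fell by 0.53 (SE 0.15) and the FACT subunit gene Supt16 by 0.56 (SE 0.12). Of the 22 nuclear RNA decay genes 5 rose and 2 fell, with a median of 0.16. Among them the exosome subunit gene Exosc8 rose by 0.89 and Rbm7, which brings RNA to the exosome, by 0.83. The 2 that fell were Exosc7, also an exosome subunit gene (-0.52), and Zfc3h1 (-0.65). Of the 26 cleavage and polyadenylation genes 2 rose and 4 fell, with a median of 0.08. The lists were compared with all entries by these counts and medians only. Setd2, Chd1, Chd2, Fip1l1 and Rbbp6 of these lists are also hosts.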

How the data were processed

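RNA was sequenced from 4 libraries, 2 per genotype. The authors deposited whole-number read counts and FPKM per gene with each locus, per the file headers. Bowtie2, RSEM, GRCm38.p6 and mm10 are named in the submitters' processing notes. Rounding of RSEM estimates, use of strand and the sharing of reads between overlapping genes are not given in the sources, so counts of nested transcripts and of near-identical copies are uncertain. WT 15 is named by its title, although its cell type label starts with 14. No per-sample column was left unused.

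The deposited counts of the whole table were tested with edgeR 4.0.16 in R 4.3.3 (TMM factors, filterByExpr by genotype, robust quasi-likelihood, Benjamini-Hochberg over all entries tested). The ratio to the host was tested with limma 3.58.1 on voom log2 values of pairs that both passed the filter. Adjusted p-values are from these fits or, where a setting is named, from the refit under it. Both fits were run on simulated counts, drawn independently for each entry and with no count filter applied. The simulation thus does not cover admission through a single genotype or reads shared between a nested transcript and its host. Fold changes set Setd2-CD4 cre over WT, and CPM are TMM-scaled, as mean ± SD. Ratios of summed scaled counts had 0.5 added. Floors and counting intervals cover counting error only. With 2 libraries against 2, no permutation test of a single transcript was made. Gene classes, introns and sequences come from GENCODE M21, in which 376 of the 384 were found.

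The transcripts, gene lists and tests were chosen with earlier results of these data known. Named are Gm42763 with Setd2, the 10 largest rises and falls that passed edgeR without overlap and with a mean of 15 counts in the higher genotype, the 8 largest rises and falls of the ratio with the same minimum, the 6 with the highest mean CPM and all nested transcripts of hosts with 3 or more; others are said to be named after their values were seen. A few selected in this way are left out of the report. Alternatives were other scalings, DESeq2 1.42.0, limma-voom, no count filter, a summed count of 40, another choice of host, and each library left out.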

Additional observations from a re-analysis of the deposited data

How the results depend on the processing

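Library scaling moved the median of all entries tested from -0.01 to -0.12 with upper-quartile factors and to -0.16 with library totals, and that of the tested nested transcripts from 0.66 to 0.55 and 0.51. Rises then numbered 47 and 40 and falls 9 and 9, a share of rises among calls of 83.9% and 81.6% against 90.3%. DESeq2 called 31 rises and 2 falls. Leaving out each library in turn gave 19 to 77 rises (26 without WT 13, 19 without WT 15) and 1 to 15 falls (2 without WT 13, 1 without WT 15, 15 without Setd2-CD4 cre 24). All 56 rises stayed above 0 in every one of these fits. Both Setd2-CD4 cre libraries were above both WT libraries for each of the 56, so leaving out a library could hardly turn a sign. Higher ratios ranged from 10 to 31 (12 without WT 13, 10 without WT 15), and lower ratios from 0 to 2, with 3 by edgeR with the host count as offset and 3 with the host of the highest summed count. The 27 higher ratios stayed above 0 and the 5 lower ones below 0 in all of these. For the 27 the ratios did not overlap between genotypes, so leaving out a library could hardly turn their sign. The middle part of the host had a median difference of 0.43 without Setd2-CD4 cre 24 and ranged up to 0.59, and one of 0.32 over pairs that reached the count filter in both genotypes; the 5′ part ranged from 0.46 to 0.79 and the 3′ part from 0.16 to 0.58.

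Setd2 passed edgeR with upper-quartile factors (-0.39, adjusted p = 0.0242), with library totals (-0.43, adjusted p = 0.0216) and without Setd2-CD4 cre 24 (-0.32, adjusted p = 0.0159), and ranged from -0.32 to -0.23 over the libraries left out. The sign turned for Gm12543 (-0.093 with library totals, -0.051 with upper-quartile factors, and from -0.098 to 0.21 with a library left out) and for Gm37691 (-0.14, -0.10, and from -0.089 to 0.11). With a library left out it also turned for Gm37255 (from -0.80 to 1.03) and for Gm43462 (from -0.36 to 2.15), none of which passed the test with all libraries. Of the 29 named transcripts past the edgeR threshold, 12 were called under all 8 alternatives run for them: Gm17024, Gm17491, Gm36989, Gm37248, Gm37370, Gm37488, Gm37653, Gm37881, Gm38257, Gm42763, Gm43065 and Gm43753. The cause of these changes was not tested. Restricting to introns (53 rises, 6 falls) and leaving out transcripts that share over 20% of their 50-base stretches (53 and 6), like the restriction to both genotypes, were chosen after seeing the data. No paired analysis was possible because the genotypes share no replicate number. The low counts limit single transcripts most: 166 of the 384 could not be tested.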
